A study of Mus musculus with 8 samples.

Results

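The transcription factor p53 (Trp53), its inhibitor Mdm2 and 8 further genes that p53 is known to switch on (Ccng1, Trp53inp1, Zmat3, Phlda3, Sesn1, Sesn2, Btg2 and Plk2) were followed in droplet-based single-cell transcriptomes of SN4741, a mouse cell line. The 10 genes were chosen by symbol, with earlier results of these data known, and are 10 of the 31053 genes counted in the files. All 10 were among the 15810 genes tested in all cells. There were 8 libraries. In 4 of them, the cells were grown at 37°C in medium with 10% serum, the permissive temperature at which the line divides. In the other 4, cells were moved a day after passage to 39°C, the non-permissive temperature, in medium with 0.5% serum, and harvested after 48 hours to induce differentiation. Temperature and serum therefore cannot be told apart in any comparison, and 37°C and 39°C below stand for both. SN4741 is a single clonal line from embryonic mouse substantia nigra with an unstable, polyploid karyotype, and both groups carry the same transgene, the heat-sensitive tsA58 form of the SV40 large T antigen driven by the tyrosine hydroxylase promoter. The labels call the cells neural precursors of wild-type genotype.

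In normal cells p53 is held low by Mdm2, a ubiquitin ligase that marks it for destruction. Since p53 switches on Mdm2, the pair forms a feedback loop. When p53 is stabilized, it turns on genes that halt the cell cycle, repair damage, restrain growth signals or kill the cell. Its control is mostly at the level of the protein, which was not measured here. Large T antigen is known to bind p53 and keep it from its target genes. T antigen transcripts were not analysed here, and no part of it in these values was tested.

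Of 19125 deposited cells, 18351 passed the filters (8550 grown at 37°C, 9801 at 39°C). A library held 985 to 3494 of them and 17166686 to 29633818 UMIs, the molecular barcodes that count each captured transcript once. Cells assigned to G1 made up 24.1% ± 3.41 of a library at 37°C but 84.3% ± 1.22 at 39°C (mean ± SD over 4 libraries), so results are also given within phases. Of 8 neural precursor markers, Sox1, Pax6, Fabp7 and Hes5 had 0 to 3 UMIs in all cells of a temperature together, while Vim, Nes and Sox2 were well measured. Nes fell from 467 ± 54.2 to 108 ± 6.36 CPM (log2 -2.11), Sox2 rose from 55.4 ± 2.23 to 76.5 ± 3.25 CPM (log2 0.47) and Vim was not called (edgeR, adjusted p = 0.372). CPM are UMI counts divided by the total of the library and scaled to a common base. Markers of other cell types moved with temperature as well. The summed level of 5 mesenchymal genes ran from 1923 to 1982 CPM at 37°C and from 767 to 802 CPM at 39°C, with Lum at 1 and 0 UMIs, and the 5 neuronal markers ran from 62.4 to 69.0 and from 37.3 to 39.1 CPM, with Snap25 at 0 and 1 UMIs. The blood and endothelial markers summed to under 1 CPM in every library, with Cdh5 at 0, as did the glial markers, with Olig2 at 0. Their part in the results below was not tested. In sums over a library, fewer cells expressing a gene and less RNA per cell cannot be told apart. Nothing states that replicates are separate cultures, so p-values measure the spread between these libraries, which may be technical.

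Promoter sequence was examined first, because p53 acts through a short DNA element. RefSeq start-site windows (GRCm38.p6, 250 bases before to 50 bases after a start) were at hand for 8 of the 10 genes, in 9 windows. Trp53inp1 and Zmat3 had no window. Each window was searched for the 10-base p53 consensus element, which reads the same on both strands. Each was also searched for 2 such elements placed end to end, the layout of a full p53 binding element. At most 1 mismatch was allowed over both elements together. The windows below are shown 5′ to 3′ on the gene's own strand, with matches in capitals. They were picked because Ccng1 alone held the double element, Mdm2 and Trp53 form the feedback loop, and Btg2 rose most at 39°C.

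The windows are Ccng1 (chr11:40755237-40755536, minus strand), Mdm2 (chr10:117710709-117711008, minus strand), Trp53 (chr11:69580109-69580408, plus strand) and Btg2 (chr1:134079106-134079405, minus strand).
Ccng1: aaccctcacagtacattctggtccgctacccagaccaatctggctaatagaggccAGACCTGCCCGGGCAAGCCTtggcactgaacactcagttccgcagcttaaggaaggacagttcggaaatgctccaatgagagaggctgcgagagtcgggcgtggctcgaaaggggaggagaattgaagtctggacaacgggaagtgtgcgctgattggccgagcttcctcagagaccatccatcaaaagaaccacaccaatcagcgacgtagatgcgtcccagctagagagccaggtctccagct
Mdm2: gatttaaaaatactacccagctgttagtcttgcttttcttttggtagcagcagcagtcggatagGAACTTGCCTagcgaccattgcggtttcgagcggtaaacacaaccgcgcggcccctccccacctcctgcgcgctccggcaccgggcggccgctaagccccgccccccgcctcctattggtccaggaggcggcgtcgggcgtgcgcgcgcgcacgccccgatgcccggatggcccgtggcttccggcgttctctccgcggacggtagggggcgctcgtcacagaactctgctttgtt
Trp53: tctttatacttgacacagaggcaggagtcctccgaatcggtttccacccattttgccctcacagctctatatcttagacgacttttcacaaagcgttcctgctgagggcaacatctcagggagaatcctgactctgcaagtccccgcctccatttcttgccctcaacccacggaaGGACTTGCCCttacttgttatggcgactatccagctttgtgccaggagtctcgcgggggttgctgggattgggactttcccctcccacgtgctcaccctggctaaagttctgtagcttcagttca
Btg2: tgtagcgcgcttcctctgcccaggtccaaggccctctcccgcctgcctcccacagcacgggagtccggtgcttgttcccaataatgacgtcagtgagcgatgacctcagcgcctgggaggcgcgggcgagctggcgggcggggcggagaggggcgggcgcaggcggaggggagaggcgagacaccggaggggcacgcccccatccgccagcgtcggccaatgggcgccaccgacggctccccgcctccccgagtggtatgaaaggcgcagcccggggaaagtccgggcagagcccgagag

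An exact single element was found in 4 of the 8 genes, against 9.55% of 27025 genes with a window. It began at position -75 from the start in Trp53 (GGACTTGCCC), at -186 in Mdm2 (GAACTTGCCT) and at -185 in Ccng1 (GGGCAAGCCT). In Sesn1 it lay at -173 from the downstream one of its annotated starts (AAGCTTGTTT). Counted by window, 8.36% of all 32851 held one. The double element began at -195 in Ccng1 (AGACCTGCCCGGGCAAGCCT) and takes in the single match there. Among all windows 29, or 0.0883%, held one. The Btg2, Phlda3, Sesn2 and Plk2 windows held no match to these letters. A match is a description of the sequence and not proof of binding, and elements outside the windows, such as those known in the first intron of Mdm2, were not searched.

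The main comparison asked how the p53 genes differ between the temperatures. Of the 10 genes, 9 were higher at 39°C and Trp53 itself was lower (edgeR quasi-likelihood test on counts summed per library, adjusted p under 0.05 over all genes). Their median log2 fold change was 0.65, against 0.02 over all genes tested. Among all genes, 31.5% were called higher and 30.5% lower. The libraries of both temperatures did not overlap for any of the 10, as was the case for 56.7% of all genes. No member reached the stricter limit the study used for bulk RNA (adjusted p under 0.01 and a log2 change over 1.5), which 5.83% of all genes passed. The changes ran from -0.21 for Trp53 to 1.20 for Btg2 on the log2 scale. Because each UMI marks 1 end of 1 molecule, CPM here needs no division by length.

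Trp53 (ENSMUSG00000059552, chr11:69580359-69591873, plus strand) was measured at 183, 189, 210.4 and 215 CPM in 37°C replicates 1 to 4 and at 171, 173, 176 and 167 CPM in 39°C replicates 1 to 4. All 4 libraries at 39°C lay under the lowest at 37°C. The fold change was 0.862, or -0.21 ± 0.05 (SE) on the log2 scale (edgeR, adjusted p = 0.00181). Mdm2 (ENSMUSG00000020184, chr10:117688875-117710758, minus strand) moved the other way. It stood at 719.9, 647, 650.2 and 696 CPM at 37°C and at 1189, 1162, 1114 and 1176 CPM at 39°C. Its log2 change was 0.77 ± 0.05 (SE), a 1.71-fold rise (edgeR, adjusted p = 2.47e-10). The gap between the groups was many times the spread within either. The inhibitor's transcript was thus higher where that of p53 was slightly lower.

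**Figure D1:**
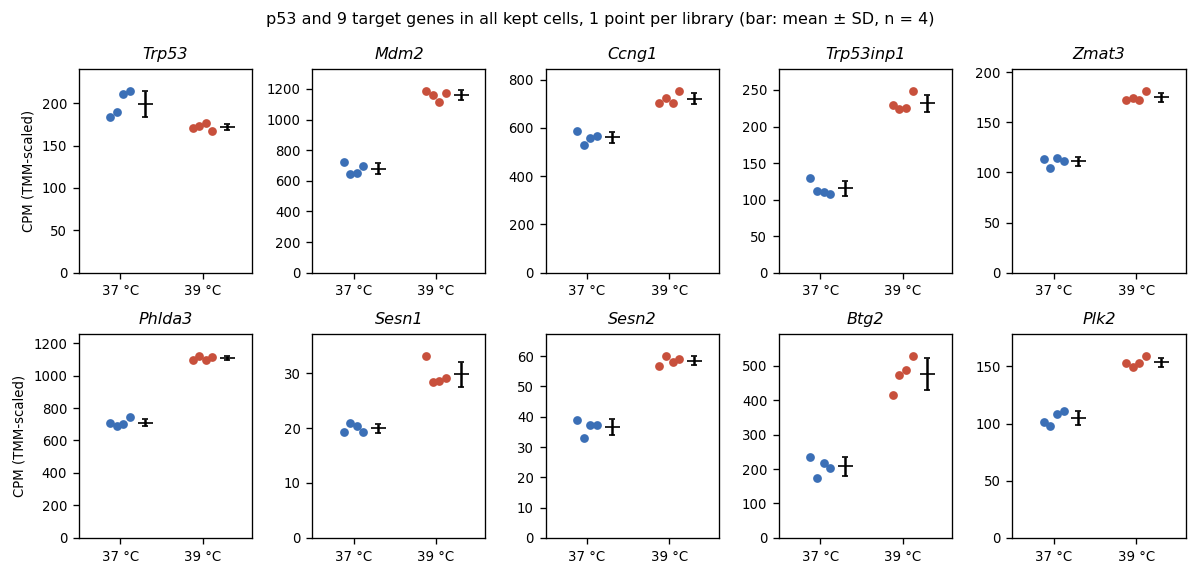
Level of Trp53 and 9 p53 target genes in CPM (vertical axes, each starting at 0) in the 4 libraries at 37°C (blue) and the 4 at 39°C (red), with the mean ± SD beside the points. Trp53 sits lower at 39°C (199 against 172 CPM on average), and the other 9 genes sit higher in every 39°C library.

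The largest rises were those of Btg2 and Trp53inp1. Btg2 (ENSMUSG00000020423, chr1:134075170-134079120, minus strand) encodes an antiproliferative protein that recruits the deadenylase complex to mRNAs. It was at 236, 174, 218 and 202 CPM at 37°C and at 416, 472, 487 and 529 CPM at 39°C. It rose 2.29-fold (log2 1.20 ± 0.08 SE, edgeR adjusted p = 1.55e-10), and its spread was the widest of the 10 relative to its mean at 37°C. Trp53inp1 (ENSMUSG00000028211, chr4:11156431-11174379, plus strand) encodes a nuclear stress protein that assists p53. It gave 130.0, 112, 111 and 108 CPM at 37°C against 229, 224, 225 and 249 CPM at 39°C, a 2.01-fold rise (log2 1.01 ± 0.06 SE, edgeR adjusted p = 1.55e-11).

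Ccng1, Zmat3, Phlda3 and Plk2 rose less. Ccng1 (ENSMUSG00000020326, chr11:40748552-40755311, minus strand), a cyclin that works with a phosphatase on Mdm2, had 586, 531, 557 and 567 CPM at 37°C and 703, 722, 704 and 754 CPM at 39°C. This was the smallest rise of the 9, at 0.36 ± 0.05 (SE) on the log2 scale (edgeR, adjusted p = 4e-06), although its window alone held the double element. Zmat3 (ENSMUSG00000027663, chr3:32334792-32366014, minus strand), a zinc finger protein that binds RNA, went from 114, 105, 115 and 111 CPM to 172, 175, 172 and 182 CPM (log2 0.65 ± 0.05 SE). Phlda3 (ENSMUSG00000041801, chr1:135766119-135769136, plus strand), a repressor of Akt signalling, went from 707, 688, 703 and 743 CPM to 1096, 1121, 1095 and 1112 CPM (log2 0.64 ± 0.05 SE). The libraries of Zmat3 and of Phlda3 lay close together within each temperature and far apart between them. Plk2 (ENSMUSG00000021701, chr13:110395046-110400844, plus strand), a polo-like kinase induced by stress, went from 101, 97.9, 108 and 111 CPM to 153, 149, 153 and 159 CPM (log2 0.55 ± 0.05 SE).

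The sestrins, which restrain mTORC1 and protect against oxidants, were the least abundant of the 10. Sesn1 (ENSMUSG00000038332, chr10:41809935-41908424, plus strand) stood at 19.3, 20.9, 20.4 and 19.2 CPM at 37°C and at 33.1, 28.3, 28.5 and 29.1 CPM at 39°C, where replicate 1 was above the rest. Its log2 change was 0.57 ± 0.06 (SE, edgeR adjusted p = 5.42e-08). Sesn2 (ENSMUSG00000028893, chr4:132492032-132510501, minus strand) stood at 39.1, 32.9, 37.4 and 37.2 CPM and at 56.7, 60.1, 58.2 and 59.2 CPM, a log2 change of 0.68 ± 0.05 (SE). The annotated gene Gm12981 overlaps Sesn2 on the same strand, so reads of the pair may have been split or dropped and the Sesn2 level is uncertain. The third sestrin, Sesn3, also rose, with 42.1 ± 2.42 CPM at 37°C and 76.8 ± 2.80 CPM at 39°C, a log2 change of 0.87.

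Because far more cells were in G1 at 39°C, the comparison was repeated within each phase. In G1 cells the same 9 genes were higher at 39°C, against 24.8% of all genes, and Trp53 was not called. Its level in G1 cells averaged 161 CPM (SD 8.10) at the lower temperature against 169 CPM (SD 4.14) at the higher one, with overlapping groups and a log2 difference of 0.076 (edgeR, adjusted p = 0.239). The median change of the 9 targets in G1 cells was 0.64, close to the 0.65 in all cells. Btg2 changed by 0.95 ± 0.08 (SE) in G1 cells, Trp53inp1 by 0.78 ± 0.06, Mdm2 by 0.74 ± 0.06 and Plk2 by 0.63 ± 0.06. The lowest of the rises was again that of Ccng1, at 0.31 ± 0.06 (SE, edgeR adjusted p = 0.00012).

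In S cells 9 genes were higher, against 20.1% of all genes, and Trp53 was lower, against 23.4%. Trp53 averaged 218 CPM (SD 15.7) at 37°C there and 193 CPM (SD 10.7) at 39°C, a log2 difference of -0.17 (edgeR, adjusted p = 0.0299), and its groups overlapped. Plk2 rose least in S cells, by 0.19 (edgeR, adjusted p = 0.0383). Both of these calls were lost under several other settings, DESeq2 among them (adjusted p = 0.0679 for Trp53 and 0.0603 for Plk2), and the Plk2 call was lost without 37°C replicate 1 or 2 or 39°C replicate 3 or 4. The Trp53 call was lost without 37°C replicate 3 or 4 or 39°C replicate 1 or 4. In G2M cells 8 genes were higher, against 13.2% of all genes. Btg2 led with 1.07 ± 0.08 (SE), and neither Trp53 (0.042, edgeR adjusted p = 0.758) nor Ccng1 (0.051, adjusted p = 0.685) was called. With phases scored within each library, however, Ccng1 was called higher in G2M cells, at 0.26 (adjusted p = 0.00102). The call of Sesn1 in G2M cells was lost without 39°C replicate 2 (adjusted p = 0.148). Libraries at 39°C held only 29 to 187 G2M cells, so values there are less precise.

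**Figure D2:**
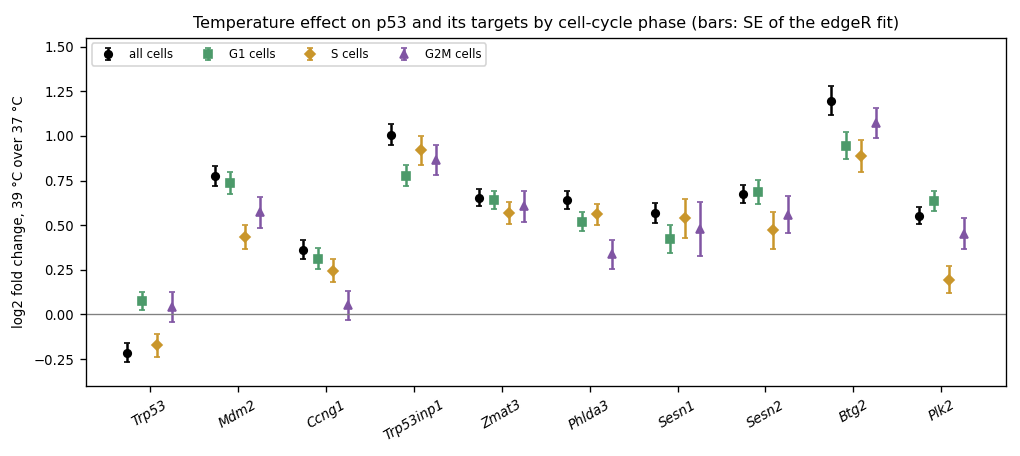
Log2 fold change of each gene at 39°C over 37°C (vertical axis) in all cells and in cells assigned to G1, S or G2M, with the standard error of the edgeR fit as bars. The 9 targets lie above 0 throughout, Ccng1 in G2M cells only by 0.05, while Trp53 lies below 0 in all cells and S cells and near 0 in G1 and G2M cells.

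Whether the temperature effect itself differed between G2M and G1 cells was tested with the library as a block. The common dispersion of this joint fit was 0.000836. Fits of G2M against G1 within 1 temperature gave 0.000456 at 37°C and 0.00277 at 39°C. The joint fit may thus understate the spread at 39°C, and its p-values may be too small. The rise was smaller in G2M cells for Ccng1 (difference of log2 changes -0.27 ± 0.05 SE, edgeR adjusted p = 7.88e-05), Phlda3 (-0.18 ± 0.05, adjusted p = 0.00736) and Mdm2 (-0.18 ± 0.05, adjusted p = 0.0092). For the other 7 the difference was not called, and 5.22% of all genes had a called difference in this direction. The calls of Mdm2 and Phlda3 were lost without 39°C replicate 3 (adjusted p = 0.0872 and 0.117), and that of Mdm2 also without 39°C replicate 4 (adjusted p = 0.116). Both were also lost when libraries were scaled by plain totals, which moved the median of all genes in this comparison by 0.11 (from -0.07 to 0.04), while the call of Ccng1 held under all of these settings. With phases scored within each library, the difference of Phlda3 was -0.026 and not called (adjusted p = 0.695). Btg2 was then called in the opposite direction, with a larger rise in G2M cells (0.25, adjusted p = 0.000188), as it was when scaled by plain totals (0.21, adjusted p = 0.0157).

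The phases were then compared with each other within a library. In these fits, G2M against G1 at 39°C apart, the spread that edgeR estimated was close to counting noise (common dispersion 0.000401 to 0.000471). Those p-values mostly reflect counting error. For G2M against G1 at 39°C the dispersion was 0.00277, near the 0.00294 of the main comparison in all cells. The direction in each library is given beside the values. At 37°C, Trp53 was higher in S than in G1 cells by 0.45 ± 0.05 (mean and SD of the log2 ratio, n = 4), while 8 of the 9 targets were lower in S cells. For background, 24.3% of all genes were higher and 21.4% lower in S. Trp53inp1 fell by 0.77 ± 0.08, Btg2 by 0.60 ± 0.12 and Mdm2 by 0.45 ± 0.04 on the log2 scale, each in 4 of 4 libraries. Plk2 was the exception among the targets, at 0.10 ± 0.10 and higher in 3 of 4 libraries, and its call was lost without 37°C replicate 3 or 4 (adjusted p = 0.225 and 0.23). The fall of Sesn1 was not called without 37°C replicate 3 (adjusted p = 0.064).

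At 39°C, Trp53 was again higher in S than in G1 cells (0.20 ± 0.09, SD, n = 4), where 17.5% of all genes were higher and 20% lower. Mdm2 fell by 0.75 ± 0.06, Btg2 by 0.66 ± 0.06, Trp53inp1 by 0.64 ± 0.13 and Sesn2 by 0.60 ± 0.19. In all, 8 targets were lower in S cells, Plk2 now among them at -0.34 ± 0.13 (lower in 4 of 4 libraries), and Sesn1 was not called. Whether the S to G1 ratio of Plk2 differed between the temperatures was not tested. At both temperatures, the p53 transcript was thus higher and those of most of its targets lower in S than in G1 cells, and with phases scored within each library only the call of Zmat3 at 39°C was lost (adjusted p = 0.227).

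G2M and G1 cells were more alike. At 37°C, Trp53 was higher in G2M cells by 0.36 ± 0.07 (SD, n = 4), Mdm2 by 0.13 ± 0.09 and Sesn2 by 0.25 ± 0.17, each in 4 of 4 libraries, against 23.2% of all genes called higher. Btg2 was lower by -0.25 ± 0.11 and Phlda3 by -0.08 ± 0.06 on the log2 scale, also in 4 of 4, against 21.3% called lower. The other 5 were not called, but Ccng1 was called higher without 37°C replicate 1 (log2 0.096, adjusted p = 0.00178) and Zmat3 without 37°C replicate 2 (0.11, adjusted p = 0.0473). At 39°C, Trp53 was higher by 0.32 ± 0.07 (10.7% of all genes called higher), and Phlda3 (-0.26 ± 0.11) and Ccng1 (-0.21 ± 0.08) were lower (12% called lower), each in 4 of 4 libraries. This comparison depended on how phases were assigned. With phases scored within each library, Trp53 was still higher in G2M cells at both temperatures, but at 39°C Phlda3 and Ccng1 were no longer called (adjusted p = 0.344 and 0.336) and 5 further genes were called higher: Btg2 (log2 0.14), Plk2 (0.24), Trp53inp1 (0.19), Zmat3 (0.25) and Sesn2 (0.17). Btg2 had been called lower at 39°C without replicate 1 (-0.15, adjusted p = 0.0123) or replicate 2 (-0.22, adjusted p = 0.0208), so no direction can be given for it there. At 37°C this scoring gave calls for Ccng1 (0.098) and Zmat3 (0.13), and Phlda3 was not called, nor was it without 37°C replicate 1 (adjusted p = 0.101).

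**Figure D3:**
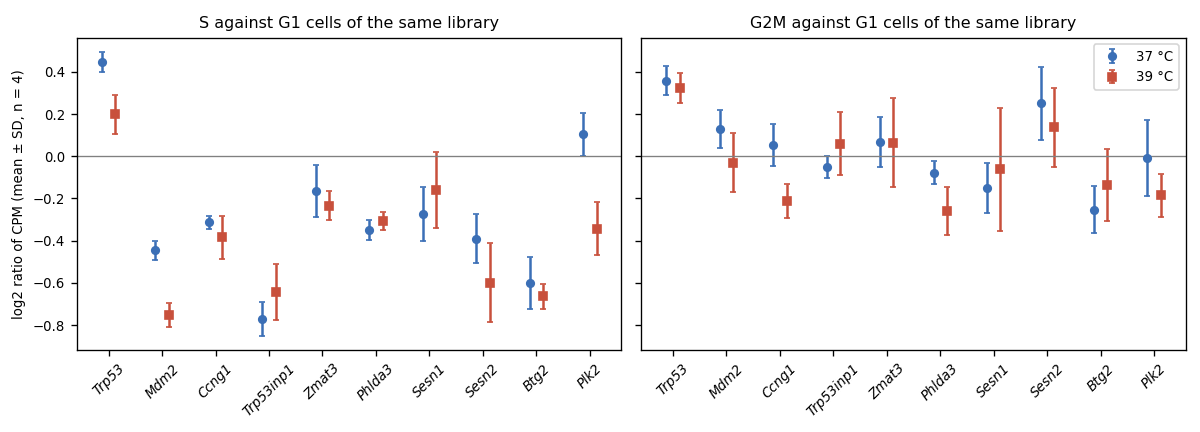
Log2 ratio of CPM in S cells (left) and G2M cells (right) to that in G1 cells of the same library (vertical axis), as the mean and SD of 4 libraries at 37°C (blue) and 39°C (red). Trp53 lies above 0 in all 4 sets, while Mdm2, Trp53inp1 and Btg2 in S cells lie between -0.45 and -0.77.

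Whether the genes vary together from cell to cell was described after thinning each cell to 5000 UMIs, so that depth is equal. This left 7882 cells at 37°C and 8133 at 39°C, and left out 668 and 1668 shallower ones. A cell held on average 12.7 ± 0.439 UMIs of the 9 targets together at 37°C, against 20.5 ± 0.627 at 39°C (mean ± SD over 4 libraries). Without thinning, the 10 genes summed to between 2598 and 2836 CPM per library at 37°C and between 4213 and 4416 CPM at 39°C. By phase, the thinned sum was 14.3 in G1, 10.4 in S and 14.1 in G2M cells at 37°C, and 21.1, 15.8 and 20.4 at 39°C. The dip in S cells is thus seen in the sum as well, at both temperatures. The variance of the sum over cells was 3.96 ± 0.441 times its mean at 37°C and 3.50 ± 0.224 times at 39°C. With the covariance between the 9 genes left out, it would be 2.04 and 2.02 times.

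Pearson correlations of log counts were taken across the cells of each library, and the median of the 4 libraries is given for each pair. All points of a library share its preparation, and counts are sparse, so these are descriptions with no test. Among the 36 pairs of targets, the median correlation was 0.0935 at 37°C (range -0.000528 to 0.328), with 32 pairs positive in all 4 libraries. At 39°C it was 0.0892 (range 0.0204 to 0.233), with 35 pairs positive in all 4. Most of the strongest pairs held Mdm2. At 37°C these were Mdm2 with Btg2 (0.328), Trp53inp1 (0.317), Phlda3 (0.286) and Ccng1 (0.252), and at 39°C Mdm2 with Btg2 (0.233) and Ccng1 (0.19). Trp53inp1 with Btg2 gave 0.234 at 37°C and 0.188 at 39°C, next to Mdm2 with Trp53inp1 at 39°C (0.187). Sesn1, the rarest of the set, had no correlation above 0.0575 with any other target at either temperature.

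Trp53 did not vary with its targets in this way. Its 9 correlations had a median of -0.00638 at 37°C, with a range from -0.0166 to 0.0248, and of 0.0277 at 39°C, from 0.00722 to 0.04. Of the 9 pairs, 2 were positive in all 4 libraries at 37°C and 5 at 39°C. In G1 cells alone these counts were 2 and 7. Weak values such as these in sparse counts are no finding. In G1 cells alone the median over target pairs was 0.0996 at 37°C and 0.08 at 39°C, so the correlation was also present within 1 phase.

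**Figure D4:**
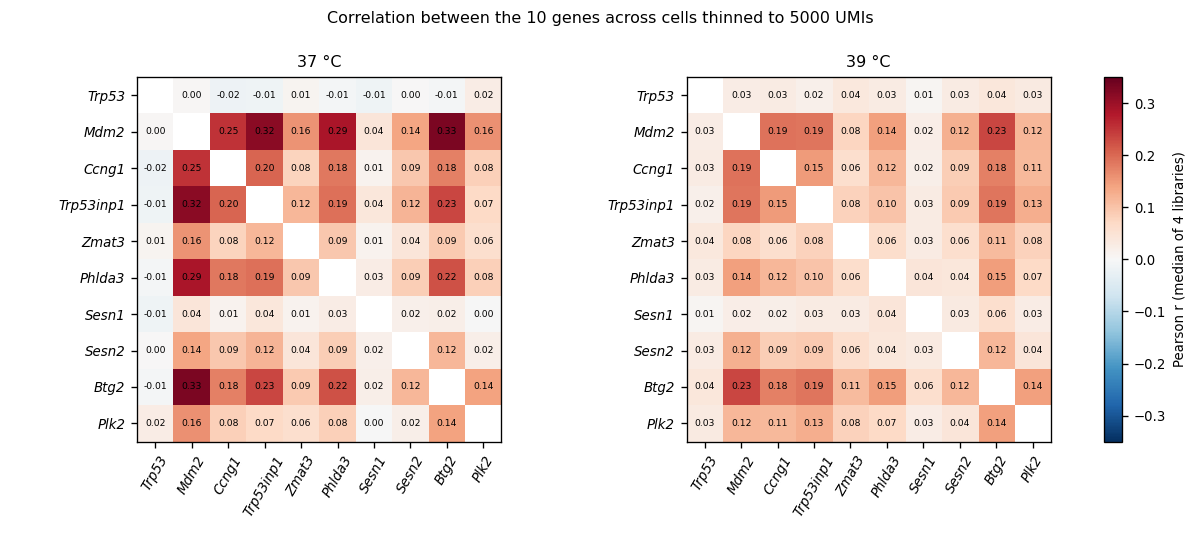
Pearson correlation of log counts across cells thinned to 5000 UMIs for each pair of the 10 genes at 37°C (left) and 39°C (right), as the median of 4 libraries, on a colour scale from -0.35 to 0.35. The row of Mdm2 is the darkest, up to 0.33 with Btg2 at 37°C, and the row of Trp53 is near 0.

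The genes that varied most like Mdm2 were sought among 3315 genes with at least 0.2 thinned UMIs per cell in every library. At 37°C the first was Cdkn1a, which encodes the cell cycle inhibitor p21 (0.453), then Notch1 (0.358), followed by Btg2, Trp53inp1 and Phlda3. At 39°C they were Cdkn1a (0.253), Dcxr (0.247), Btg2, Ccng1 and Perp (0.189), a membrane protein induced by p53. The 95th percentile over all these genes was 0.0969 at 37°C and 0.0773 at 39°C. For the sum of the 9 targets, Cdkn1a again came first at both temperatures (0.555 and 0.384). It was followed at 37°C by Mdm2, Notch1 (0.426), Btg2 and Trp53inp1, and at 39°C by Dcxr (0.348), Pmm1 (0.343), Notch1 (0.337) and Btg2. Mdm2, Btg2 and Trp53inp1 are targets themselves, and each target was left out of the sum it was compared with. For Ccng1 the first were Cdkn1a (0.28), Mdm2, Notch1 (0.233), Dcxr (0.213) and Pmm1 (0.213) at 37°C and Perp (0.229), Pmm1 (0.221), Vcan (0.213), Dcxr (0.209) and Cryab (0.205) at 39°C. The closest genes to Trp53 reached only 0.0962 (Ncl), 0.0799 (Eif5a), 0.0762 (Ppia), 0.0761 (Npm1) and 0.0757 (Rpl15) at 37°C, and 0.134 (Pnp), 0.128 (Man2b1), 0.113 (Vcan), 0.106 (Ndufb6) and 0.103 (Bscl2) at 39°C.

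Cells were also divided by their Mdm2 count. The cells and thinned counts are those of the correlations, so the ratios restate the correlations with Mdm2 and are no separate support. At 37°C, 1623 cells held 6 or more Mdm2 UMIs and 2584 held at most 1. The former had 3.93 ± 0.452 times as many Trp53inp1 UMIs (SD, n = 4 libraries), with means of 0.992 and 0.254 per cell. The ratio was 2.96 ± 0.458 for Btg2, 2.37 ± 0.446 for Sesn2 and 1.84 ± 0.093 for Plk2. It was 1.70 ± 0.138 for Zmat3, 1.63 ± 0.0743 for Ccng1, 1.63 ± 0.0839 for Phlda3 and 1.38 ± 0.276 for Sesn1. For Trp53 it was 1.02 ± 0.0383. Over genes with at least 0.2 thinned UMIs per cell in every library, the median ratio was 0.983 and the 95th percentile 1.49. By the mean ratio, 7 of the 8 other targets lay above that percentile. Sesn1 and Sesn2 were too rare to be in that gene set, so both were set against better measured genes.

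At 39°C, 3457 cells held 6 or more Mdm2 UMIs and 1012 held at most 1. The mean was 5.68 Mdm2 UMIs per cell there and 3.40 at 37°C, so the same limits cut the cells differently. The ratios were smaller at 39°C, but with such unlike groups this is no measure of weaker co-variation. The ratios reached 1.58 ± 0.354 for Sesn2, 1.57 ± 0.265 for Trp53inp1 and 1.53 ± 0.171 for Btg2. Ccng1 (1.32 ± 0.109), Plk2 (1.31 ± 0.0895), Phlda3 (1.21 ± 0.0335), Zmat3 (1.18 ± 0.0566) and Sesn1 (1.04 ± 0.186) followed, and Trp53 was at 0.972 ± 0.127. The 95th percentile over the same gene set as at 37°C was 1.32. By the mean ratio, Sesn2, Trp53inp1 and Btg2 lay above it and Ccng1 about at it (1.322 against 1.320). In 39°C replicate 1 none of the 8 targets passed that library's percentile of 1.37, and the highest was Btg2 at 1.29. The cells with at most 1 Mdm2 UMI had more of the other 8 targets at 39°C than at 37°C, for example 1.88 against 0.556 Btg2 UMIs per cell. Of these cells, 67.4% to 77.3% per library were assigned to G1 at 39°C and 16.3% to 21.4% at 37°C. Among G1 cells alone the ratio was 3.07 ± 0.718 for Trp53inp1 and 2.94 ± 0.847 for Btg2 at 37°C, and 1.47 ± 0.278 and 1.41 ± 0.152 at 39°C. Fewer targets stood out there. By the mean over libraries, 4 of the 8 lay above the 95th percentile of that gene set in G1 cells at 37°C (1.59). They were Trp53inp1, Btg2, Sesn2 and Plk2 (1.69 ± 0.445), while Ccng1 (1.53), Zmat3 (1.52), Phlda3 (1.44) and Sesn1 (1.39) lay below. Plk2 was under its own library's percentile in 37°C replicates 1 (1.45 against 1.53) and 2 (1.32 against 1.61). At 39°C, 3 of the 8 lay above the percentile in G1 cells (1.33) by the same mean, namely Trp53inp1, Btg2 and Sesn2. In 39°C replicate 1 none of them did (1.13, 1.21 and 1.19 against 1.41).

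**Figure D5:**
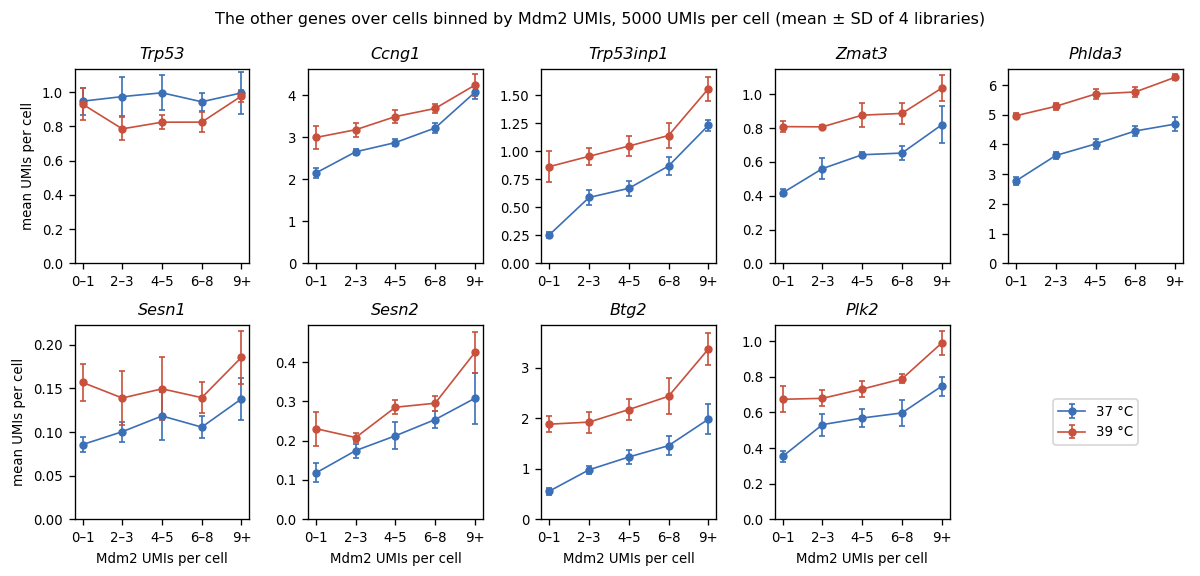
Mean UMIs per cell of the other 9 genes (vertical axes) in cells binned by their Mdm2 UMIs (horizontal axes), all cells thinned to 5000 UMIs, as the mean ± SD of 4 libraries at 37°C (blue) and 39°C (red). Btg2 and Trp53inp1 climb with Mdm2, and Trp53 does not, with 0.963 UMIs in cells with 6 or more Mdm2 UMIs and 0.948 in those with at most 1 at 37°C.

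Other genes of the pathway were taken as fixed lists. Their counts stand against 31.5% of all genes called higher and 30.5% called lower in all cells. Of 16 regulators of p53, 7 were higher and 5 lower at 39°C, and the lower share was near that of all genes. They included the Mdm2 relative Mdm4, which also inhibits p53 and rose from 109 ± 7.12 to 207 ± 5.62 CPM (log2 0.92), and the phosphatase Ppm1d, which rose from 40.0 ± 1.23 to 64.1 ± 0.642 CPM (log2 0.68). The checkpoint kinase Chek2 fell by 0.72 on the log2 scale, from 11.8 ± 0.773 to 7.24 ± 0.854 CPM in all cells, but differed by only -0.06 in G1 cells (edgeR, adjusted p = 0.794). The list as a whole had a median log2 change of 0.038, near that of all genes (0.021). Mdm4 and Ppm1d both restrain p53, as Mdm2 does.

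Of 9 further targets for arrest and repair, 6 were higher and 1 lower, with a median of 0.61 in all cells and 0.37 in G1 cells. Cdkn1a rose from 1263 ± 86.2 to 2209.7 ± 118 CPM (log2 0.81) and the repair nuclease Ercc5 from 133 ± 9.96 to 224 ± 5.12 CPM (log2 0.75). Pcna, the sliding clamp of DNA replication, was the one that fell, by 1.28 on the log2 scale, and it is one of the S genes with which phases were assigned. Of 15 targets for cell death and stress, 13 were higher and 0 lower, with a median of 0.61. Pmaip1, which encodes the death protein Noxa, rose most (18.6 ± 0.942 to 38.3 ± 1.72 CPM, log2 1.04), then Ephx1 (log2 0.95), an epoxide hydrolase, and Perp (log2 0.94). Bax, another death gene, was not called (log2 0.06, edgeR adjusted p = 0.308).

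Of 11 paralogs of the members, 7 were higher and 2 lower, with a median of 0.40. Mdm4 is in this list and in that of the regulators, so its rise counts in both, in all cells and in G1 cells. Btg1, the closest relative of Btg2, rose from 110.0 ± 4.19 to 290.0 ± 28.4 CPM (log2 1.40), more than Btg2 itself by estimate, although that difference was not tested. Plk1, the mitotic relative of Plk2, fell by 3.90 on the log2 scale in all cells, from 40.7 ± 3.37 to 2.76 ± 0.507 CPM. In G1 cells alone its log2 change was -1.74 (edgeR, adjusted p = 8.22e-06). The p53 relatives Trp63 and Trp73 were close to absent, at 1.76 ± 0.0298 and 0.0734 ± 0.0566 CPM at 37°C. In G1 cells the higher counts were 6 of 16 regulators, 6 of 9 arrest and repair targets, 13 of 15 death and stress targets and 5 of 11 paralogs, against 24.8% of all genes. The lower counts there were 3, 1, 0 and 2, against 22.4% of all genes.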

How the data were processed

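Droplet libraries (Chromium 3′ V3 kit) were made from trypsinized SN4741 cells, 4 at each temperature. The authors aligned reads to mm10 with Cell Ranger 3.0.1 and deposited whole-number UMI counts per gene and cell, 1 matrix per library, with no normalization. No other columns needed mapping to samples (0 left unmapped), and no comparison columns of the authors are in the files.

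From these counts, cells were kept at up to 15% mitochondrial UMIs and 200 to 6000 genes, the limits of the study. The mitochondrial limit was exceeded by 334 cells and the limit of 6000 genes by 440, and 29 cells had fewer than 200 genes. The upper limit was the only treatment of doublets. Libraries shared at most 5 barcodes with one another, and any pair at the same temperature differed by more than sampling error (chi-square over its degrees of freedom 2.80 to 24.1). Median depth per cell was 6676 to 16665 UMIs. Intervals other than SE and SD were not computed, and the precision of a rare gene is limited by its counts.

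Phases were assigned with Seurat 5.3.0 (CellCycleScoring, cc.genes in mouse letter case, 42 of 43 S and 52 of 54 G2M genes found, 0 of them among the 10 genes). Since the library is the replicate, counts were summed per library, or per library and phase. Those genes that averaged 1 count or more were tested with edgeR 4.0.16 (R 4.3.3, TMM factors, glmQLFit and glmQLFTest on temperature) and adjusted by Benjamini-Hochberg over all tested genes at 0.05. Phase contrasts had the library as a block. SE is the fold change over the square root of F, and CPM use TMM-scaled totals. The procedure was tested on simulated data. Correlations and Mdm2 bins used cells thinned without replacement to 5000 UMIs (Python 3.11.15, numpy 2.4.6, scipy 1.17.1). Gene positions are from GENCODE M21 (GRCm38, the same assembly as mm10).

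The 10 genes and the lists were chosen with earlier results of these data known. All 10 are named in each comparison. From each pathway list, up to 3 members were named, those with the largest called change and a group mean of 10 CPM or more, and the 5 genes most like Trp53, Mdm2, Ccng1 and the sum of targets by correlation. Sesn3, Bax, Trp63, Trp73, Cdkn2a, Atm, Hipk2 and Chek1 were chosen after the values were seen. So were the comparison of S with G1 cells and the division of cells by Mdm2 count. The alternatives tried were DESeq2 1.42.0, a block for the replicate number, scaling by RLE, upper quartile or totals, other filters on genes and cells, phases scored within each library, each library left out, and other thinning. The study's own phase assignment and clusters were not used here.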

Additional observations from a re-analysis of the deposited data

Results flagged for a closer look

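In all cells, Sesn1 of 39°C replicate 1 stood apart from the other 3 libraries of its group, at 33.1 CPM against 28.3 to 29.1. In S cells, Trp53inp1 of 39°C replicate 4 stood apart in the same way, at 188 CPM against 142 to 149. These were 2 of 80 groups of 4 libraries checked, and chance alone flags about 1 in 20. The temperature effect was called different between G2M and G1 cells for Mdm2 (-0.179 on the log2 scale), Ccng1 (-0.268) and Phlda3 (-0.182). This was by the test of the difference itself, whose p-values may be too small. For Mdm2 and Phlda3 the call was lost under several other settings.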

How the results depend on the processing

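In all cells, each of the 180 alternative values of the 10 genes kept its direction and its call. In G1 cells 189 of 190 did, in S cells 173 of 190 and in G2M cells 186 of 190. Of all 1120 alternative values, 1046 kept both. The replicate numbers did not pair the libraries: the deviations of same-numbered libraries correlated at -0.0789, -0.0662, -0.0483 and 0.153. With the replicate number as a block, 10 genes were called in all cells, 9 in G1, 10 in S and 8 in G2M cells, as without it, and it changed no other call.

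Scoring phases within each library turned Trp53 to -0.071 in G1 cells and to -0.043 in G2M cells, gave Ccng1 a call in G2M cells (0.26), and raised the calls of G2M against G1 cells at 39°C from 3 to 6. It also turned the G2M to G1 ratio at 39°C of Mdm2 (0.028), Sesn1 (0.0037), Btg2 (0.14) and Plk2 (0.24), and at 37°C of Trp53inp1 (0.065) and Plk2 (0.076). The difference of the temperature effect turned for Trp53 (0.036), Zmat3 (0.12) and Plk2 (0.16), shrank to -0.026 for Phlda3 and was called for Btg2 (0.25). Scaling by totals turned that difference for Trp53 (0.0835) and Zmat3 (0.06029) and Mdm2 in G2M against G1 cells at 39°C (0.032), and filterByExpr turned Trp53 (0.019) and left 1 call of the difference in place of 3. The cause was not tested.

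With each library left out, calls of the difference ranged from 1 (without 39°C replicate 3) to 3, Trp53 in G2M cells from -0.0041 to 0.0799, and the difference from -0.014 to 0.12 for Trp53inp1, -0.14 to 0.0092 for Zmat3 and -0.076 to 0.22 for Sesn1. The G2M to G1 ratio ranged from -0.077 to 0.061 for Plk2 at 37°C, and at 39°C from -0.092 to 0.006008 for Mdm2, -0.016 to 0.084 for Trp53inp1, -0.023 to 0.11 for Zmat3 and -0.21 to 0.074 for Sesn1. At 3000 UMIs per cell the median correlation between targets was 0.0742 at 37°C and 0.0602 at 39°C. Depth limits the 39°C G2M sums most, at 449856 to 1483712 UMIs per library.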

Other observations

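At 5000 UMIs per cell, 1 cell of 37°C replicate 2, assigned to G2M, held 94 Mdm2 UMIs, while the next highest cell of that library held 17. Its other 8 targets summed to 47 UMIs, against a mean of 8.77 over the library. The variance of Mdm2 over cells was 4.41 times its mean in that library and 2.90 times without this cell, in the range of the other 37°C libraries (2.80 to 3.24). At 39°C the highest cell of a library held 36 to 68 Mdm2 UMIs.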
